A study of Mus musculus with 16 samples.

Results

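Connexins are the protein subunits of gap junctions. The connexin genes described here are Gja1 (Cx43), Gja4 (Cx37), Gja5 (Cx40) and Gjc1 (Cx45), chosen by name as the connexins known from the glomerulus and its arterioles. They are 4 of the 25791 gene symbols in the table. All 16 libraries came from glomeruli of diabetic mice with the genotype eNOS-/-//db/db, which lack endothelial nitric oxide synthase and are homozygous for the db allele of Lepr, the gene of the leptin receptor. The 9 untreated mice received no drug. The 7 RAAS-blocked mice were given lisinopril at 20 mg/day together with losartan at 30 mg/day by way of their water. Dosing began at 10 to 12 weeks of age and ended at 26 weeks. Lisinopril inhibits angiotensin-converting enzyme and losartan blocks the type 1 angiotensin receptor, so both act on the renin-angiotensin-aldosterone system (RAAS). Every mouse in the comparison was diabetic and eNOS-deficient, so the contrast is one of drug treatment within that model. The drugs were given as a pair, so their separate effects cannot be told apart.

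Connexins assemble into hemichannels, and hemichannels of adjoining cells dock to form channels that pass ions, calcium signals and small metabolites. Vascular connexins carry electrical and calcium signals along the vessel wall, and in the glomerulus they link endothelial, mesangial, smooth muscle and renin-secreting cells. Renin is made by granular cells in the wall of the afferent arteriole, and Ren1 expression there rises when angiotensin II signalling is blocked. Gja5 is the connexin most closely tied to those cells: mice without it lose the restraint that blood pressure and angiotensin II place on renin release.

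Gja4 and Gja5 were the most abundant of the 4 genes, and the 250 bases before their transcription start sites are shown for that reason. The sequences are RefSeq's, on the build GRCm38.p6, and are written 5′ to 3′ on the strand of the gene. The Gja4 stretch is chr4:127314040-127314289 on the minus strand, and the Gja5 stretch is chr3:97032152-97032401 on the plus strand. Capitals mark matches to the motifs searched.
Gja4: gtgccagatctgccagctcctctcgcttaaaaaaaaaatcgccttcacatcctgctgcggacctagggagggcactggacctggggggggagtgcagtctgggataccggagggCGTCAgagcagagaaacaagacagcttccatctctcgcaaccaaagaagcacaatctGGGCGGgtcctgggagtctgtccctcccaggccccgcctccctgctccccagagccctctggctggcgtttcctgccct
Gja5: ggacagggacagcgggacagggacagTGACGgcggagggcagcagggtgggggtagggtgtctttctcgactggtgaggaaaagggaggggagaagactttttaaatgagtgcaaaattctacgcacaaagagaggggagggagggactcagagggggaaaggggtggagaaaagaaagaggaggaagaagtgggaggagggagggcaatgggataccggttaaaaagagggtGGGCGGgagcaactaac
The motifs searched on both strands were a TATA box (TATAAA), a GC box (GGGCGG), a cAMP response element half-site (TGACG), a T-box half-site (AGGTGT) and an AP-1 site (TGANTCA). The GC box, a binding motif of Sp1-type factors, was found once in each sequence, 79 to 74 bases before the start of Gja4 and 17 to 12 bases before the start of Gja5. The cAMP response element half-site was also found once in each, 136 to 132 bases before the start of Gja4 on the minus strand relative to the gene and 224 to 220 bases before the start of Gja5. Among all 32851 promoters of this length, 32.7% held the GC box and 17.8% held the cAMP response element half-site. The Gja1 promoter held 2 half-sites and 1 AP-1 match, 19 to 13 bases before the start, and no GC box; 6.75% of all promoters held the AP-1 motif. Neither the TATA box, held by 12.4% of all promoters, nor the T-box half-site, held by 11.8%, was among the letters of these 3 windows. RefSeq promoter entries were matched for 3 of the 4 genes, and Gjc1 had none. The match of letters to a motif is a description and shows no binding.

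Values are FPKM, fragment counts scaled by transcript length and by the mapped fragments of the library. The libraries were similar in the number of symbols above 0, from 17993 to 18613, except RAAS-blocked replicate 4 with 16919. Absolute depth is unknown, and the spacing of low values gave relative depths from 1 to 1.69, with 61.7% to 73.9% of ratios on a step. Markers of the labelled tissue were present in every library. Summed over their lists, the 10 podocyte markers reached 1537 to 4919 FPKM, the 14 endothelial markers 3336 to 7163 FPKM and the 5 mesangial markers 265 to 1147 FPKM. The 8 arterial endothelial markers summed to 691 to 1693 FPKM and the 8 vascular smooth muscle markers to 181 to 585 FPKM. The arterial sum was mostly Sema3g, which averaged 905 and 691 FPKM in untreated and RAAS-blocked libraries. That sum by itself therefore does not show arterial endothelium. The other 7 arterial markers averaged from 2.33 (Bmx) to 79.2 FPKM (Efnb2) in untreated libraries. Of all 8 arterial markers, 3 had the higher mean under RAAS blockade and 5 the lower. Proximal tubule markers, most of which would be low in a clean glomerular preparation, ran from 52.4 to 745 FPKM. Their lowest values differed: 17.1 FPKM for Aqp1 and 13.2 FPKM for Gatm, against 2.59 FPKM for Slc34a1 and 0.277 FPKM for Slc5a2. The lowest sums therefore need not measure tubule. The 6 distal nephron markers, which would also be low in a clean preparation, ran higher, from 540 to 3093 FPKM. Ren1 itself set 2 libraries apart from their labels: it was 33.5 FPKM in RAAS-blocked replicate 4, below the untreated median of 46.3 FPKM, and 263 FPKM in untreated replicate 3, the highest of its group. The numbers the submitters gave the libraries do not interleave between the groups, and what those numbers mark is not stated.

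Gja4 was the most abundant connexin in these glomeruli by mean FPKM, followed by Gja5, Gjc1 and Gja1. Gja3, outside the 4 genes, lay below Gja1 by mean in each group but had a higher RAAS-blocked median, 2.36 against 2.11 FPKM. FPKM is per length, so levels can be set side by side between genes. Gja4 exceeded Gjc1 and Gja1 in 16 of 16 libraries. It exceeded Gja5 in 14 of 16, the exceptions being RAAS-blocked replicates 1 and 2. Gja5 exceeded Gjc1 in 14 of 16, in 7 of the 9 untreated and in 7 of the 7 RAAS-blocked libraries. Gja1 was the lowest of the 4 in 16 of 16. By mean level Gja4 stood at percentile 90.0 of the 13286 genes tested, Gja5 at 81.9, Gjc1 at 70.0 and Gja1 at 23.8.

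These genes made up nearly all connexin RNA. The 20 connexin rows of the table summed to 137 ± 37.1 FPKM (SD, n = 9) without and 140 ± 23.1 FPKM (SD, n = 7) with RAAS blockade. The 4 genes held 91.8% ± 6.78 and 95.1% ± 1.91 of that sum, with the lowest share, 76.6%, in untreated replicate 1. Gja4 held 48.1% ± 8.16 of connexin FPKM in untreated and 42.4% ± 4.42 in RAAS-blocked libraries. Gja5 held 23.2% ± 6.89 and 34.2% ± 6.47. Gjc1 held 16.1% ± 1.92 and 16.2% ± 2.27, and Gja1 4.44% ± 1.5 and 2.21% ± 1.05. The total was almost equal in the groups while the mean Gja5 share was larger and the mean Gja4 and Gja1 shares were smaller under RAAS blockade. These shares were not tested.

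None of the 4 connexins passed the test between the groups at an adjusted p of 0.05 (limma, Benjamini-Hochberg over 13286 genes), where 0.0151% of all tested genes did. Gja1 had a lower mean and Gja5 a higher mean under RAAS blockade, while Gja4 and Gjc1 differed by less than the spread between libraries. At an unadjusted p under 0.05, 2 of the 4 passed, 1 in each direction, against 6.13% of all genes tested. Neither held that mark in every fit. The limma unadjusted p of Gja5 went from 0.0238 to 0.0564 without RAAS-blocked replicate 1 and to 0.0529 without RAAS-blocked replicate 2, and that of Gja1 went from 0.00831 to 0.0522 with replicate numbers as a block. The median log2 difference of the 4 was -0.02, and that of all genes tested was also -0.02. All 4 passed the filter on low values. They varied more between libraries of a group than most genes: their within-group SDs stood at percentiles 75.1 (Gjc1) to 88.6 (Gja1) of all genes tested.

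**Figure D1:**
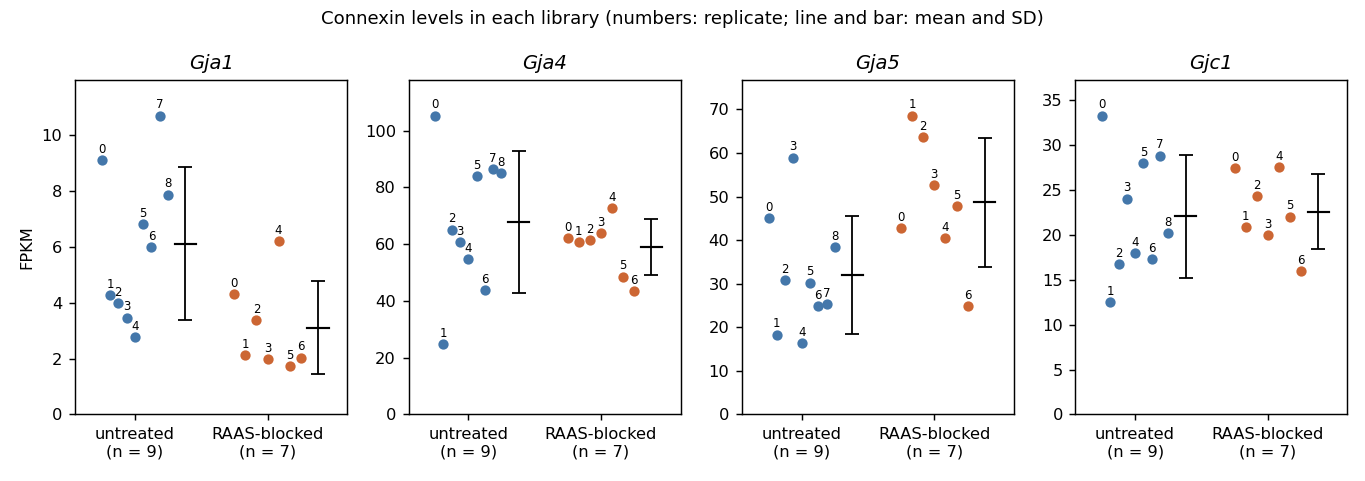
FPKM (vertical axes, each starting at 0) of Gja1, Gja4, Gja5 and Gjc1 in each of the 9 untreated and 7 RAAS-blocked libraries; points are libraries with their replicate number, and the line and bar give the group mean and SD. The groups overlap for each gene, with Gja1 averaging 6.11 and 3.11 FPKM and Gja5 32.0 and 48.7 FPKM.

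Gja5 is the connexin of arteriolar endothelium, of the cells that secrete renin and of the extraglomerular mesangium that joins them. It ran from 16.4 FPKM through a median of 30.3 to 58.9 FPKM in untreated libraries, and from 24.9 through 47.7 to 68.6 FPKM in RAAS-blocked libraries. Of the 7 RAAS-blocked libraries 6 lay above the untreated median and 2 (replicates 1 and 2) above the highest untreated library. In the other direction, 3 untreated libraries lay below the lowest RAAS-blocked one, and the groups overlapped. The untreated library with the highest Gja5 was replicate 3, which also had the highest untreated Ren1. The means were 32.0 ± 13.5 (SD, n = 9) and 48.7 ± 14.8 FPKM (SD, n = 7), a ratio of 1.52. The difference was 0.63 ± 0.25 (SE) on the log2(FPKM + 1) scale, with a 95% interval of 0.10 to 1.16 and a limma adjusted p of 0.755. The unadjusted two-sided exact permutation p over the 16 libraries was 0.0370.

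Gja1 encodes the most widely expressed connexin, found in the glomerulus in mesangial cells, podocytes and endothelium. It ran from 2.77 FPKM through a median of 5.98 to 10.7 FPKM in untreated libraries. In RAAS-blocked libraries it ran from 1.73 through 2.11 to 6.21 FPKM. All 9 untreated libraries lay above the RAAS-blocked median, and 1 of the 7 RAAS-blocked libraries, replicate 4, lay above the untreated median. The groups overlapped, with 4 RAAS-blocked libraries below the lowest untreated one and 4 untreated libraries above the highest RAAS-blocked one. The means were 6.11 ± 2.73 (SD, n = 9) and 3.11 ± 1.66 FPKM (SD, n = 7), a ratio of 0.509. The difference was -0.78 ± 0.26 (SE) on the log2(FPKM + 1) scale, with a 95% interval of -1.33 to -0.23 and a limma adjusted p of 0.655. The unadjusted two-sided exact permutation p was 0.0160. Gja1 is low enough for the added constant to matter: with 5 in place of 1 the difference was -0.44.

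Gja4 is an arterial endothelial connexin that is also made in renin-secreting cells. It ran from 24.7 FPKM through a median of 65.1 to 105 FPKM in untreated libraries and from 43.5 through 61.5 to 72.8 FPKM in RAAS-blocked libraries. The RAAS-blocked values lay inside the untreated range. Their SD was also the smaller one, 9.86 against 24.9 FPKM, around means of 59.0 (n = 7) and 67.8 FPKM (n = 9). The difference of -0.11 ± 0.24 (SE) on the log2(FPKM + 1) scale had a 95% interval of -0.61 to 0.39 and a limma adjusted p of 0.957. It was -0.27 without untreated replicate 1 and -0.33 without untreated replicates 1 and 4, and its direction turned to 0.18 with the level of endothelial markers as a covariate.

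Gjc1 encodes the connexin of vascular smooth muscle, mesangial cells and renin-secreting cells, and embryos need it for vessel development. It ran from 12.5 FPKM through a median of 20.2 to 33.3 FPKM in untreated libraries and from 15.9 through 22.03 to 27.5 FPKM in RAAS-blocked libraries, again inside the untreated range. The means were 22.1 ± 6.85 (SD, n = 9) and 22.6 ± 4.19 FPKM (SD, n = 7). The difference of 0.07 ± 0.18 (SE) on the log2(FPKM + 1) scale had a 95% interval of -0.31 to 0.44 and a limma adjusted p of 0.962. Its direction is not settled, since leaving out untreated replicate 1 alone gave -0.022.

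Each library is taken as 1 mouse from the treatment protocol, while the labels do not tie samples to animals, so the p-values measure the spread between libraries. Without RAAS-blocked replicate 4 and untreated replicate 3, the libraries whose Ren1 lay nearer the other group, the log2 difference was -1.005 for Gja1, 0.78 for Gja5, -0.17 for Gja4 and 0.04 for Gjc1. None of these passed at an adjusted p of 0.05 either. Leaving out these libraries was chosen after their values were seen, and Ren1 is itself one of the genes compared here, so those values serve only as a description.

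In the ratio of Gja5 to Gja4 within a library, any factor common to both FPKM values cancels. Gja5 and Gja4 had their largest marker correlations with different lists, mesangium and endothelium, so the ratio need not reflect a balance within endothelium. The ratio ran from 0.292 through a median of 0.453 to 0.971 in untreated libraries, with a mean of 0.510 ± 0.222 (SD, n = 9). In RAAS-blocked libraries it ran from 0.556 through 0.825 to 1.13, with a mean of 0.827 ± 0.229 (SD, n = 7). All 7 RAAS-blocked libraries lay above the untreated median and 3 lay above the highest untreated library, while 6 untreated libraries lay below the lowest RAAS-blocked one. The lowest RAAS-blocked ratio was that of replicate 4 and the highest untreated ratio that of replicate 3. The ratio was formed after the levels were known and is given without a test.

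**Figure D2:**
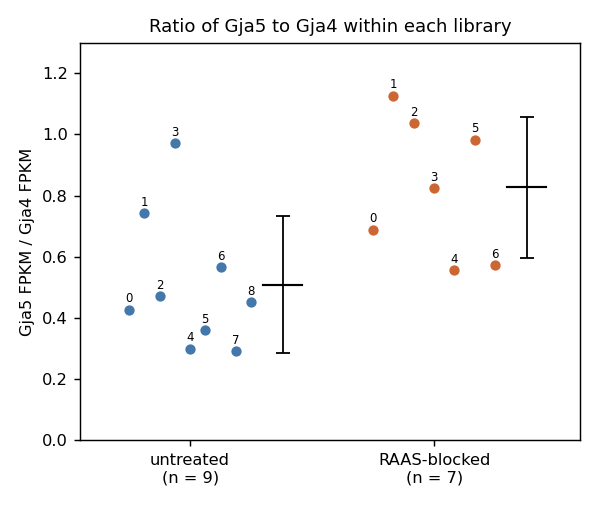
Ratio of Gja5 FPKM to Gja4 FPKM within each library (vertical axis) for 9 untreated and 7 RAAS-blocked libraries; points are libraries with their replicate number, and the line and bar give the mean and SD. The means are 0.510 and 0.827, and the RAAS-blocked libraries lie between 0.556 and 1.13.

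Ren1, the gene of renin, ran from 6.92 through a median of 46.3 to 263 FPKM in untreated libraries and from 33.5 through 1289 to 1584 FPKM in RAAS-blocked libraries, with 6 of the 7 above the highest untreated one. Its log2 difference was 3.85 ± 0.76 (SE) with a limma adjusted p of 0.218, and it passed at 0.05 without RAAS-blocked replicate 4 (adjusted p from 0.00380 to 0.473 over the fits that leave out 1 library). The relation of each connexin to Ren1 was computed within each group, because pooling would mix it with the group difference. With the pairs of connexins this made 20 relations, whose two-sided exact permutation p-values were adjusted together, with values on the log2(FPKM + 1) scale.

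**Figure D3:**
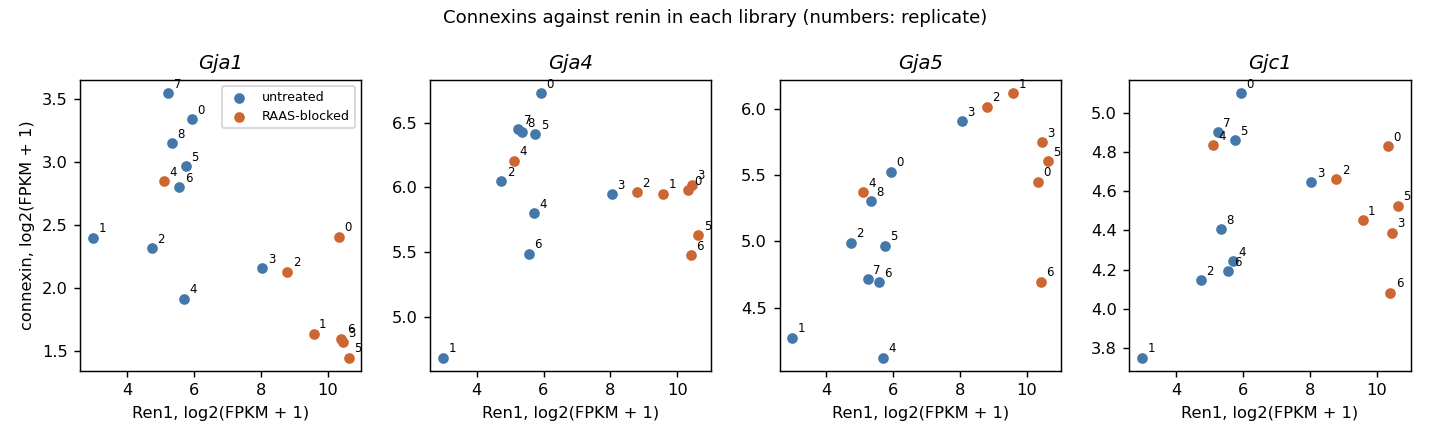
Each connexin (vertical axes, log2(FPKM + 1)) against Ren1 (horizontal axes, log2(FPKM + 1)) in 9 untreated and 7 RAAS-blocked libraries, with replicate numbers beside the points. RAAS-blocked replicate 4 lies among the untreated libraries on the Ren1 axis in each panel, and Gja1 is highest in that library of its group.

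No connexin was related to Ren1 past an adjusted p of 0.05 in either group. In untreated libraries (n = 9), Pearson's r with Ren1 was 0.69 for Gja5 (exact permutation p = 0.0387, adjusted 0.193; Spearman's rho 0.50, exact permutation p = 0.178, adjusted 0.323). It rested on untreated replicates 1 and 3, the libraries with the lowest and the highest Ren1: without them r was 0.03. For Gjc1 r was 0.59 (exact permutation p = 0.0840, adjusted 0.204; rho 0.63, exact p = 0.0760, adjusted 0.286), and 0.50 without the same libraries. For Gja4 r was 0.50 (exact permutation p = 0.165, adjusted 0.254; rho 0.27, exact p = 0.493, adjusted 0.705), and 0.16 without them. For Gja1 r was -0.07 (exact permutation p = 0.874, adjusted 0.924; rho -0.08, exact p = 0.843, adjusted 0.954), and 0.17 without them.

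In RAAS-blocked libraries (n = 7) r with Ren1 was below 0 for all 4 genes, though only just for Gja5. Gja1 had r = -0.80 (exact permutation p = 0.0288, adjusted 0.193; rho -0.89, exact p = 0.0123, adjusted 0.123), which does not pass after adjustment. Without replicates 2 and 4, the libraries farthest from the median of Ren1, r was -0.07. Without replicate 0 alone it was -0.98 and passed (exact permutation, adjusted p = 0.0173; 0.0173 to 0.583 over the libraries left out in turn). Both the size of r and the call thus depend on single libraries. Gja4 had r = -0.65 (exact permutation p = 0.146, adjusted 0.244; rho -0.46, exact p = 0.302, adjusted 0.465), and -0.41 without those libraries. Gjc1 had r = -0.55 (exact permutation p = 0.208, adjusted 0.297; rho -0.61, exact p = 0.167, adjusted 0.323), and -0.03 without them. Gja5, the connexin of the renin-secreting cell, had r = -0.02 (exact permutation p = 0.960, adjusted 0.960; rho -0.07, exact p = 0.906, adjusted 0.954), and -0.54 without them. The 6 RAAS-blocked libraries with high Ren1 therefore spanned Gja5 levels from 24.9 to 68.6 FPKM, nearly the whole range of the data. Whether the relations differ between the groups was not tested.

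Among the connexins themselves, Gja4 and Gjc1 were the pair past the adjusted threshold, in untreated libraries. In untreated libraries r was 0.87 (n = 9, exact permutation p = 0.00173, adjusted 0.0346; rho 0.83, exact p = 0.00827, adjusted 0.123), the 1 relation of the 20 past an adjusted p of 0.05. Without untreated replicates 0 and 1, the libraries farthest from the median of Gja4, r was 0.69 with an unadjusted exact permutation p of 0.0923, so the call rests on them. In RAAS-blocked libraries r was 0.74 (n = 7, exact permutation p = 0.0542, adjusted 0.204; rho 0.61, exact p = 0.167, adjusted 0.323). Without the 2 farthest libraries the RAAS-blocked value was 0.46. Gja1 and Gjc1 had r = 0.63 in untreated libraries and 0.80 in RAAS-blocked libraries, the latter 0.50 without the 2 farthest, and Gja1 and Gja4 had 0.59 and 0.69, all with adjusted exact permutation p of 0.193 to 0.204. Gja5 and Gja1 had the lowest r of these pairs in each group, 0.24 and -0.07, the latter turning to 0.37 without the 2 farthest libraries. Between Gja5 and Gja4 r was 0.56 and 0.52, the latter turning to -0.70 without the 2 libraries farthest from the median. Between Gja5 and Gjc1 r was 0.57 and 0.38, the latter turning to -0.52 in the same way. In untreated libraries the r of Gja5 with Gja4 and with Gjc1 lay close to that of Gja1 with the same genes. Differences between these r were not tested. None of these Gja5 relations passed the adjusted threshold.

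The largest correlation with cell type markers was with endothelium for Gja4 and Gjc1 and with mesangium for Gja5. Whether these correlations differ between the genes was not tested. Each connexin was set against the mean log2 level of 10 lists of cell type markers over all 16 libraries after group means had been subtracted, with a permutation test that shuffled libraries within groups (100000 resamples, adjusted over 40 pairs). In bulk samples, fewer cells of a type and less RNA per cell cannot be told apart.

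Gja5 followed the mesangial markers (Pdgfrb, Itga8, Gata3, Serpine2 and Art3), with r = 0.90 (permutation adjusted p = 0.0008; rho 0.85, adjusted 0.00200). The value was 0.92 within untreated and 0.86 within RAAS-blocked libraries, and 0.83 without the 2 libraries farthest from the median. The mesangial level itself averaged 5.88 ± 0.603 (SD, n = 9) and 6.16 ± 0.511 (SD, n = 7) on the log2(FPKM + 1) scale. All 5 of its markers had the higher mean under RAAS blockade, and none passed at an adjusted p of 0.05 (limma). With that level as a covariate the Gja5 difference was 0.40 on the log2 scale, against 0.63 without it, and its SE was 0.12 against 0.25. The limma unadjusted p was 0.00479 with the covariate, and the adjusted p of 0.442 did not pass. Gja5 minus the mesangial level on the log2 scale averaged -0.94 ± 0.24 (SD, n = 9) without and -0.58 ± 0.26 (SD, n = 7) with RAAS blockade, a difference given without a test. Other lists also had higher means under RAAS blockade. The fibroblast markers averaged 2.82 ± 0.355 and 3.48 ± 0.232 on the log2 scale, with 5 of 5 tested genes higher, 3 of them at a limma unadjusted p under 0.05 and none past the adjusted threshold. The vascular smooth muscle markers averaged 4.69 ± 0.456 and 5.04 ± 0.223, with 7 of 8 higher, 2 at an unadjusted p under 0.05 and none past the adjusted threshold. With group means subtracted, Gja5 had r = 0.41 with the fibroblast markers (permutation adjusted p = 0.249; rho 0.31, adjusted 0.454). That r was 0.60 in untreated and -0.07 in RAAS-blocked libraries. With the smooth muscle markers r was 0.57 (permutation adjusted p = 0.0927; rho 0.61, adjusted 0.117), 0.60 and 0.54 by group. For 2 other lists the sign differed between untreated and RAAS-blocked libraries: -0.71 and 0.76 with proximal tubule markers, and -0.82 and 0.54 with distal nephron markers. With podocyte markers r was -0.11 and -0.87. Differences between the groups in r were not tested. The part of any of these lists in the Gja5 difference was not tested. With the arterial endothelial markers its r was 0.66 (permutation adjusted p = 0.0425; rho 0.65, adjusted 0.0955), and 0.71 without the 2 libraries farthest from the median. With the general endothelial markers its r was 0.40 (permutation adjusted p = 0.249; rho 0.40, adjusted 0.305).

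Gjc1 followed the endothelial markers (Pecam1, Cdh5, Kdr and 11 others), with r = 0.88 (permutation adjusted p = 0.00120; rho 0.86, adjusted 0.00200), 0.86 within untreated and 0.95 within RAAS-blocked libraries, and 0.83 without the 2 libraries farthest from the median. Its r with the vascular smooth muscle markers was 0.52 (permutation adjusted p = 0.143; rho 0.39, adjusted 0.305), and with the mesangial markers 0.62 (permutation adjusted p = 0.0732; rho 0.56, adjusted 0.149). The connexin usually assigned to smooth muscle and mesangium thus had its largest correlation, of the 10 lists, with endothelium. Gja4 followed the endothelial markers with r = 0.81 (permutation adjusted p = 0.00253; rho 0.78, adjusted 0.0279) and the arterial endothelial markers with r = 0.65 (permutation adjusted p = 0.0113; rho 0.54, adjusted 0.144). Without the 2 libraries farthest from the median these were 0.75 and 0.64. Its r with the vascular smooth muscle markers was 0.71 (permutation adjusted p = 0.0897; rho 0.40, adjusted 0.305), and 0.16 without the 2 farthest libraries. That r was 0.81 within untreated and 0.008 within RAAS-blocked libraries. The endothelial level was 7.80 ± 0.393 (SD, n = 9) in untreated and 7.55 ± 0.273 (SD, n = 7) in RAAS-blocked libraries, with 13 of its 14 markers lower in mean and none past an adjusted p of 0.05 (limma). With it as a covariate the log2 difference was 0.30 ± 0.10 (SE) for Gjc1, against 0.07 ± 0.18 without it, and 0.78 ± 0.25 for Gja5. The limma unadjusted p was then 0.00669 for Gjc1 and 0.00765 for Gja5. Their limma adjusted p of 0.176 and 0.183 did not pass.

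Gja1 passed the threshold with 1 list, by Pearson's r and not by rank. Its r with the distal nephron markers was -0.70 (permutation adjusted p = 0.0330; rho -0.59, adjusted 0.117), or -0.60 without the 2 libraries farthest from the median, and with the endothelial markers 0.65 (permutation adjusted p = 0.0619; rho 0.62, adjusted 0.117). With the mesangial markers r was 0.30 (permutation adjusted p = 0.413; rho 0.21, adjusted 0.606), and with the podocyte markers -0.10 (permutation adjusted p = 0.810; rho -0.08, adjusted 0.810). With the endothelial level as a covariate its log2 difference between the groups was -0.53, against -0.78 without it, and the part of the endothelial level in that difference was not tested.

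**Figure D4:**
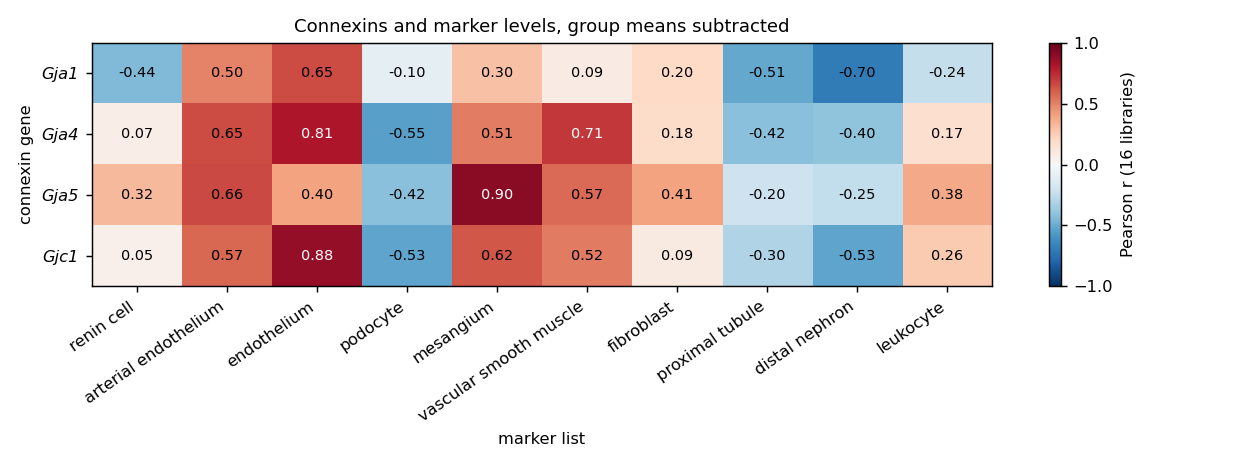
Pearson r of each connexin (rows) with the mean level of each marker list (columns) over 16 libraries with group means subtracted. Colour runs from negative to positive r and the value is written in each cell. The largest values are Gja5 with mesangium (0.90), Gjc1 with endothelium (0.88) and Gja4 with endothelium (0.81).

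**Figure D5:**
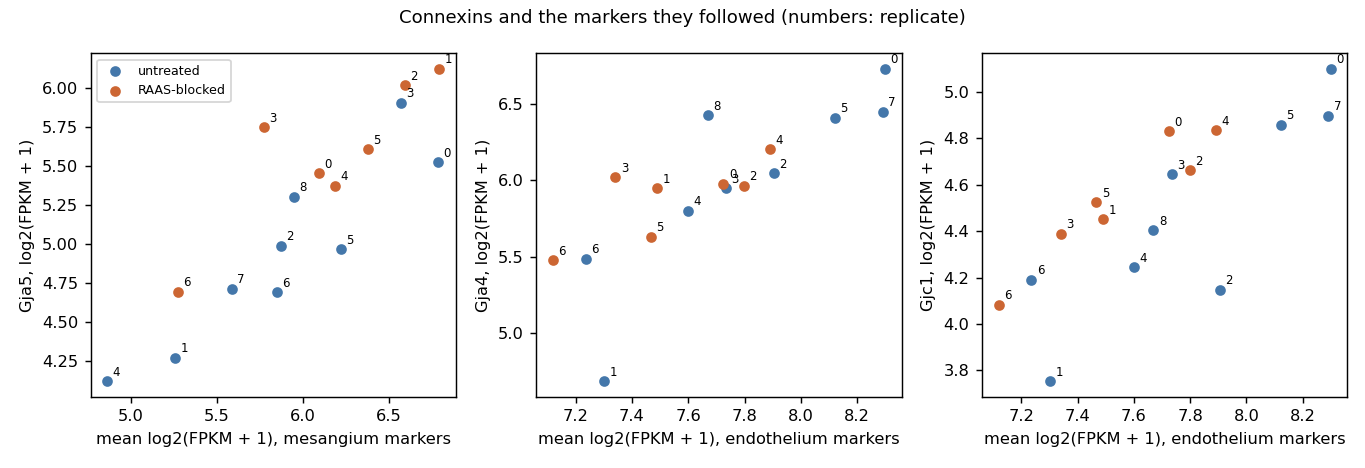
Levels of Gja5 against mesangial markers and of Gja4 and Gjc1 against endothelial markers in 9 untreated and 7 RAAS-blocked libraries, with replicate numbers beside the points. Vertical axes give log2(FPKM + 1) of the connexin and horizontal axes the mean log2(FPKM + 1) of the marker list, without subtraction of group means. With group means subtracted, r was 0.90 for Gja5, 0.81 for Gja4 and 0.88 for Gjc1.

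The 5 genes whose pattern over the 16 libraries was most like each connexin were not shared between the connexins. Likeness was Pearson's r on the log2(FPKM + 1) scale with group means subtracted, over 13285 other genes. These genes were picked for that value, so it carries no test. For Gja5 they were Col12a1 (r = 0.97), Mmp2 (0.96), Col8a1 (0.96), Dkk2 (0.94) and Cacng7 (0.94). Col12a1 and Col8a1 encode collagens, Mmp2 a gelatinase and Dkk2 a secreted modulator of Wnt signalling. Col12a1 averaged 5.34 ± 2.92 FPKM without and 9.10 ± 4.03 FPKM with RAAS blockade (SD, n = 9 and 7), a log2 difference of 0.69 ± 0.31 (limma adjusted p = 0.801). For the others of that set the log2 difference was smaller than for Gja5: 0.21 ± 0.33 for Mmp2, 0.12 ± 0.34 for Col8a1, 0.19 ± 0.29 for Dkk2 and 0.22 ± 0.26 for Cacng7.

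For Gja4 the most alike genes were Fbln5, an elastic fibre protein that is also one of the arterial markers used here, Slc38a2, an amino acid transporter, Gng11, a G protein gamma subunit, Tead2, a transcription factor of the Hippo pathway, and Eml1, a microtubule-binding protein, each with r = 0.92. For Gjc1 they were the transcription factors Mef2a (0.94) and Klf4 (0.93), the enzyme Qpct (0.94), the receptor phosphatase Ptprm (0.93) and Cxx1c (0.93). Gjc1 ranked 64 of 13285 genes for likeness to Gja4, and Gja4 ranked 152 for likeness to Gjc1. For Gja1 they were the splicing factor Prpf18 (0.94), the actin-bundling protein Pls3 (0.92), the DNA repair ligase Rad18 (0.91), the RNA-binding protein Rc3h2 (0.91) and Nktr (0.91). None of these 5 showed the group difference of Gja1: their log2 differences ran from -0.02 (Rad18) to 0.19 (Nktr). Ren1 ranked 2572 of 13285 for likeness to Gja5, with r = 0.34, and 10102 for likeness to Gja1, with r = -0.43.

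The other connexins were scarce. Of 16 further connexin genes, Gja10 and Gjd4 were listed at 0 in every library and 3 passed the filter. None of the 3 passed at an adjusted p of 0.05 (limma). Gja3, known from the lens, averaged 4.49 ± 2.39 FPKM without (SD, n = 9) and 2.42 ± 0.942 FPKM with RAAS blockade (SD, n = 7), a log2 difference of -0.63 ± 0.24 with an adjusted p of 0.730. Gjb1, a connexin of tubule and liver epithelium, averaged 2.85 and 2.13 FPKM, and Gjb2, an epithelial connexin, 1.29 and 1.31 FPKM. Gja5 overlaps 4930573H18Rik, which has no row in the table, and whether strand was used in counting is not stated.

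Of the pannexins, which form channels without docking between cells, Panx1 passed the filter, with means of 2.32 and 2.90 FPKM and a log2 difference of 0.27 ± 0.15 (limma adjusted p = 0.830). Of the 7 connexin partners listed, 6 were tested, 2 with the higher mean under RAAS blockade and 4 with the lower, and none passed. The median log2 difference of the 6 was -0.06, beside -0.02 for all genes tested. They were led by Dbn1, an actin-binding protein that holds Gja1 at the membrane (18.2 and 23.9 FPKM, log2 difference 0.32 ± 0.18), Ctnnb1, the adhesion protein beta-catenin (272 and 259 FPKM, -0.07 ± 0.08), and Cnst, which carries connexins to the cell surface (12.1 and 11.5 FPKM, -0.07 ± 0.08).

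Renin release is driven by cyclic AMP. A list of 15 genes for renin release signalling was wider than that pathway and also held Rbpj, Casr and Nos1. Of the 15, 13 were tested, 6 with the higher mean and 7 with the lower, with a median log2 difference of -0.04. None passed at an adjusted p of 0.05 (limma). Pde3a, a phosphodiesterase that degrades cyclic AMP, averaged 11.5 and 14.1 FPKM, a log2 difference of 0.30 ± 0.15. Ptgs2, the cyclooxygenase whose prostaglandins stimulate renin release, averaged 2.74 and 4.76 FPKM (0.58 ± 0.39), and Adcy5, an adenylyl cyclase of renin-secreting cells, 11.1 and 9.42 FPKM (-0.20 ± 0.13). Akr1b7, the other marker of renin-secreting cells, averaged 7.33 and 21.3 FPKM, a log2 difference of 1.32 ± 0.40 with a limma adjusted p of 0.613.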

How the data were processed

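The authors deposited 1 table of FPKM values, with 25791 gene symbols in rows and 1 column for each of the 16 libraries, 9 untreated and 7 RAAS-blocked, grouped by their titles; 0 columns were left unused. Glomeruli were iron-perfused and collected with a magnet from 1 kidney, and libraries were made from mRNA with an Illumina TruSeq kit, per the labels' protocols. TopHat2 2.0.8 and Cufflinks are named in the submitters' processing notes, beside Cuffdiff 2.2.1, CASAVA 1.8.2 and FastQC, without their roles. Genome build, annotation and use of strand are each not given in the sources used here. FPKM divides by length and by mapped fragments, so an abundant RNA lowers all other values, and depth is unknown.

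Values were tested as log2(FPKM + 1) with limma 3.58.1 in R 4.3.3, group as the only term, variance moderated with a trend and robust settings, for the 13286 genes that reached 1 FPKM in 7 or more libraries, and adjusted by Benjamini-Hochberg over them at 0.05. Correlations and their permutation tests were computed with NumPy 2.4.6 under Python 3.11.15, with ranks from SciPy 1.17.1. Code was tested on simulated data. The genes named were the 4 connexins, Ren1 and Akr1b7, other connexins averaging at least 1 FPKM in a group, up to 3 genes of lowest p in each related list, the 5 genes most like each connexin and cell type markers. The connexins and all lists were chosen with earlier results of these data known. Alternatives covered the pseudocount, filter, scaling, variance model, array weights, replicate block, marker levels as covariates, and leaving out libraries. The covariates of endothelium and mesangium and the joint removal of libraries were chosen after seeing the data.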

Additional observations from a re-analysis of the deposited data

Results flagged for a closer look

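In 94 combinations of a named gene or marker list with a group, the highest or lowest library was checked for a gap to its nearest neighbour beyond Dixon's 95% critical value, which chance passes in about 1 of 20 groups. None of the 4 connexins had such a library, and 10 others did. Untreated replicate 3 stood high for Ren1 (263 FPKM), for Akr1b7 (16.8 FPKM) and for the mean log2 level of leukocyte markers (7.26). RAAS-blocked replicate 4 stood low for the mean log2 level of the renin cell markers (3.50) and for Dbn1 (9.85 FPKM), and high for Prpf18 (23.5 FPKM). Untreated replicate 1 stood low for the mean log2 level of vascular smooth muscle markers (3.57). Gja3 was high in untreated replicate 6 (10.2 FPKM), Gjb2 in RAAS-blocked replicate 5 (3.19 FPKM) and Ptgs2 in untreated replicate 0 (8.46 FPKM).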

How the results depend on the processing

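The directions of the Gja1 and Gja5 differences held under every alternative run, from -1.005 to -0.44 for Gja1 and from 0.40 to 0.78 for Gja5 (log2), with limma adjusted p from 0.119 to 0.856 and from 0.183 to 0.862 (0.376 to 0.879 and 0.448 to 0.931 when 1 library at a time was left out). Neither passed the adjusted threshold in any fit. At an unadjusted 0.05 both passed in the main limma fit (p = 0.00831 and 0.0238) and in the exact permutation test (p = 0.0160 and 0.0370). The permutation test leaves the differences at -0.78, 0.63 and, for Ren1, 3.85. Ren1 passed the adjusted threshold with array weights (4.31) and without untreated replicate 3 and RAAS-blocked replicate 4 (4.88). Gjc1 turned to -0.0040 with array weights, -0.043 with the mesangial level as covariate and -0.067 without untreated replicates 1 and 4, which held the lowest untreated Gja5, so that the smaller Gja5 difference of 0.42 there follows from the choice. Gja4 turned to 0.18 with the endothelial level as covariate. The r of Gja1 with Ren1 in untreated libraries turned to 0.17 without the 2 libraries farthest from the median. The count of genes past an adjusted p of 0.05 was 2, and became 1 with upper-quartile scaling, with quantile normalization, without trend and robust settings and with the proximal tubule level as covariate, 11 with array weights and 16 without untreated replicate 3 and RAAS-blocked replicate 4. The cause was not tested. Gja1 did not pass a filter of 5 FPKM and has no value there.

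Same-numbered libraries correlated from -0.28 to 0.43 over 7 pairs, 4 of them over 0.1, and 2 libraries correlated best with their own number, so the numbers were not taken to pair the mice. The replicate block, over the 14 libraries of numbers present in both groups (without untreated replicates 7 and 8), left 1 gene past the threshold and gave log2 differences of -0.61 for Gja1, 0.65 for Gja5, 0.12 for Gjc1, 3.80 for Ren1 and, turned, 0.017 for Gja4.

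Leaving out 1 library at a time gave -0.93 to -0.68 for Gja1, -0.27 to -0.02 for Gja4, 0.53 to 0.78 for Gja5, -0.022 to 0.15 for Gjc1 and 3.54 to 4.56 for Ren1, with 1 to 6 genes past the threshold, 6 without RAAS-blocked replicate 4. The r with Ren1 ran in untreated libraries from -0.33 to 0.33 for Gja1, -0.14 to 0.77 for Gja4, 0.44 to 0.86 for Gja5 and 0.27 to 0.72 for Gjc1. In RAAS-blocked libraries it ran from -0.98 to -0.40 for Gja1, passing without replicate 0 (exact permutation, adjusted p from 0.0173 to 0.583), -0.75 to -0.44 for Gja4, -0.59 to 0.32 for Gja5 and -0.77 to -0.30 for Gjc1. Depth is unknown, so no limit from counting error can be given.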
